A study of Mus musculus with 8 samples.

Results

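The 4 mouse Hox clusters were described here through the accessible regions that carry their genes' names in gastrocnemius, a calf muscle of the hindlimb. A member was any region whose annotated gene was a Hoxa, Hoxb, Hoxc or Hoxd gene followed by its number, and 198 of the 489637 regions of the table met that rule. They fell into 87 regions of HoxA, 4 of HoxB, 86 of HoxC and 21 of HoxD, and covered 27 of the 39 Hox genes. The table used here held no region named for Hoxa2, Hoxa6, Hoxb1, Hoxb2, Hoxb4, Hoxb5, Hoxb7, Hoxb8, Hoxb9, Hoxb13, Hoxd1 or Hoxd12. The assay was ATAC-seq, which finds open chromatin by where a transposase can insert sequencing adapters, although the molecule label of these samples reads total RNA. All 8 samples had the genotype Cre+:iMSBmal1 fl/fl, a line with floxed Bmal1, and a time of 6 months, which the labels do not define as an age or as time since treatment. The 4 Vehicle samples were treated with Vehicle and the 4 iMSBmal1KO samples with Tamoxifen, the drug that activates inducible Cre. The titles of the iMSBmal1KO samples also carry the word Control, so the group was taken from the treatment. The labels do not name the promoter that drives Cre, and because no group received Tamoxifen without the floxed allele, an effect of the drug and of the deletion cannot be told apart. Each sample came from 2 whole muscles, homogenised and spun through sucrose to purify nuclei, and the labels do not say whether both came from 1 mouse. In such bulk nuclei, fewer cells of a type with open chromatin and less signal per cell cannot be told apart.

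Hox genes encode homeodomain transcription factors that give cells their position along the body axis and along the limb. The genes lie in clusters in the order of their paralogue numbers, with low numbers used in anterior tissues and high numbers in posterior ones, and genes of the same number in different clusters are paralogues of each other. In the limb, the highest-numbered genes of HoxA and HoxD pattern successive segments, Hoxa11 and Hoxd11 the lower leg or forearm and Hoxa13 and Hoxd13 the foot or hand, while Hoxc10 and Hoxc11 are genes of the hindlimb. Cells of adult limb muscle and its connective tissue can keep the Hox pattern of their origin. Polycomb complexes hold silent Hox genes in closed chromatin.

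The libraries held 4.311 to 19.67 M read equivalents in the Vehicle group and 11.18 to 29.49 M in the iMSBmal1KO group (M, 1000000), the deposited signal being divided by the value of 1 read. Vehicle replicate 4 was the shallowest, with 24.91% of all regions at 0 against 2.364% to 11.83% in the other libraries, and with 16.45% of its signal on the mitochondrial chromosome against 1.112% to 5.508%. Its log2 signal correlated with the other libraries at 0.80 to 0.85, and theirs with each other at 0.90 to 0.94. The windows around the starts of Arntl, the gene that encodes BMAL1, summed to 650 to 987 in Vehicle and 766 to 937 in iMSBmal1KO. The sources used here do not say which part of Arntl is deleted, so this sum does not check the labels. A region of 874 bases annotated to coding exon 5 of Arntl, singled out after its values were seen, gave 24.5, 24.7, 21.0 and 34.4 in Vehicle and 8.56, 18.4, 39.4 and 11.3 in iMSBmal1KO. There 3 iMSBmal1KO libraries lay below every Vehicle value and replicate 3 above all of them, and whether this exon is within the deleted part is not given in the sources used here. Promoters of muscle fibre genes stood at a median percentile of 95.4 of all genes, those of satellite cell genes at 39.7, of fibro-adipogenic genes at 45.9, of tendon genes at 52.1, of endothelial genes at 38.4, of smooth muscle and pericyte genes at 42.9, of Schwann cell genes at 49.3 and of immune genes at 17.5. The summed promoter signal of each of these 8 lists overlapped between the groups, and none of their 25 tested genes passed the test described below. The immune list had no tested gene and the Schwann list 1. The fibro-adipogenic list, for example, summed to 424 to 670 in Vehicle and 473 to 689 in iMSBmal1KO over 6 of 6 genes with signal. The immune list held signal at Csf1r and Ptprc and none at Adgre1, and summed to 3.13 to 7.46 in Vehicle and 5.14 to 12.5 in iMSBmal1KO.

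In Vehicle muscle, listed accessible regions were dense over HoxA and HoxC, less so over HoxD, and few over HoxB. HoxA held 125 regions of any name in its 105.5 kb, and HoxC held 102 in 115.7 kb. This equals 118 and 88.1 regions per 100 kb, against 19.9 over chromosomes 1 to 19. HoxD held 37 regions in 96.9 kb, or 38.2 per 100 kb. HoxB held 12 regions in 173.9 kb, or 6.90 per 100 kb, so that it alone lay under the average of the chromosomes. The spans run between the outermost genes of each cluster. In the mm10 build they lie on chromosome 6 for HoxA, and at chr11:96194316-96368254 for HoxB, chr15:102921131-103036856 for HoxC and chr2:74668225-74765142 for HoxD.

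Signal summed over the span followed the same order. HoxA carried 29.3, 30.5, 25.5 and 20.4 units of signal per kb in Vehicle replicates 1 to 4, a mean of 26.4 ± 4.56 (SD, n = 4). HoxC carried 22.5 ± 2.79, HoxD 8.44 ± 1.07 and HoxB 0.474 ± 0.115 (SD, n = 4 each), and chromosomes 1 to 19 carried 5.08 ± 0.458. All 4 Vehicle values of HoxA lay above those of HoxD, and all of HoxD above those of HoxB, while the ranges of HoxA and HoxC overlapped. Of the signal in regions that carry a Hox name, HoxC held 47.7%, HoxA 44.9%, HoxD 6.77% and HoxB 0.652%.

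**Figure D1:**
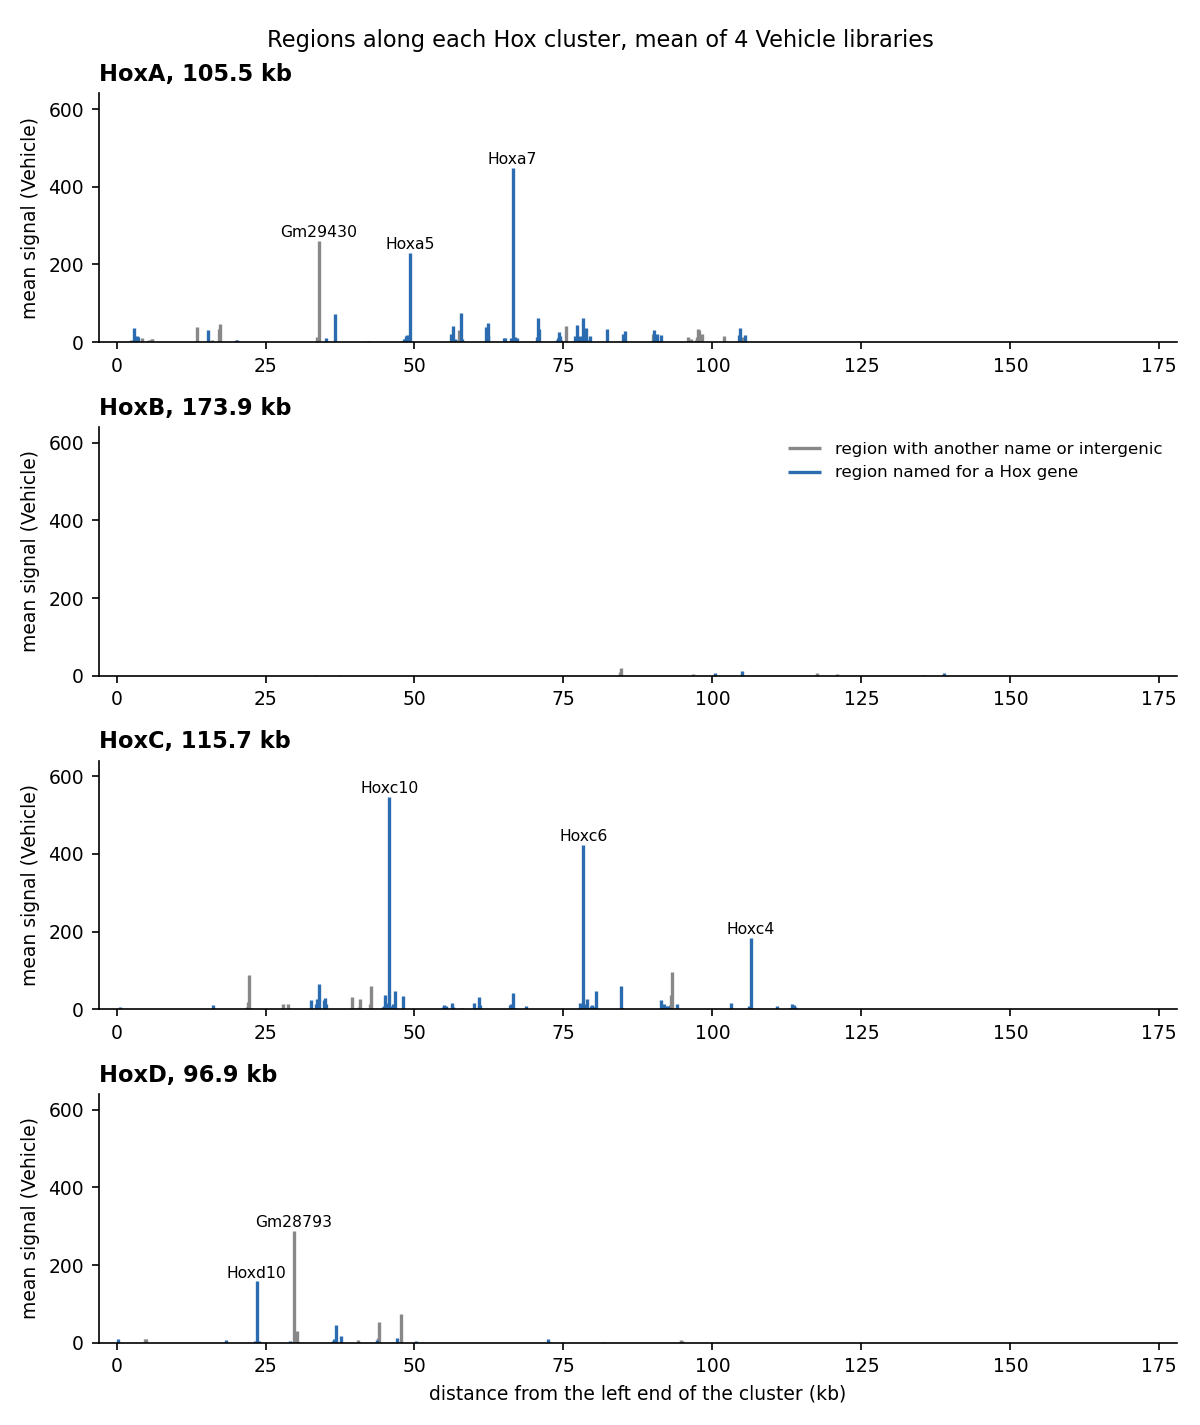
Mean signal of each region (vertical axis, deposited scaled reads, mean of 4 Vehicle libraries) against its distance in kb from the left end of the cluster span, with HoxA drawn from its lowest paralogue number to Hoxa13 and the other clusters from the highest paralogue number to the lowest. Blue lines are regions named for a Hox gene and grey lines are other regions, and the tall lines with names are the 8 regions above 100, of which HoxB has none.

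Within the clusters a handful of regions carried much of the signal. The 5 strongest of the 198 Hox regions held 39.7% of all Hox signal in Vehicle and the 10 strongest held 49.1%, while 105 regions had a mean below 10. The strongest lay at the start of Hoxc10 (chr15:102966493-102967328), with 608, 639, 506 and 435 in Vehicle and 570, 712, 526 and 602 in iMSBmal1KO. Next came the start of Hoxa7 (chr6:52221538-52222164), with 580, 527, 379 and 306 in Vehicle and 518, 666, 520 and 541 in iMSBmal1KO. In both, Vehicle replicate 4 had the lowest value of the 8 libraries. The start of Hoxc6 (chr15:102999082-102999842) gave 435, 465, 403 and 388 in Vehicle against 370, 446, 308 and 439 in iMSBmal1KO. The start of Hoxa5 (chr6:52204466-52204764) gave 221, 257, 233 and 206 against 305, 340, 192 and 246, and per kb of region it was the highest of all, at 766. An exon in the 5′ untranslated part of Hoxc4 (chr15:103027338-103027723) gave 197, 199, 168 and 166 against 185, 164, 159 and 138. At the start of Hoxd10 (chr2:74691532-74691966) the values were 191, 163, 153 and 125 against 200, 240, 147 and 196. In each of these 6 regions the 2 groups overlapped.

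Per kb, the 10 highest Hox regions were these at Hoxa5, Hoxa7, Hoxc10, Hoxc6 and Hoxc4, together with 2 further regions at starts of Hoxa7, 1 at Hoxa4 and 2 at Hoxa9, with values of 372 to 411. Of the Hox regions, 90 of 198, or 45.5%, were annotated to a transcription start, against 14.5% of all regions. Another 32 lay in exons of 5′ untranslated sequence, 28 in a first coding exon, 26 in a first intron and 16 at a transcript end. The rule admits only regions that carry a gene name, whereas all regions include intergenic ones. The shares at starts are therefore not from like sets, and part of their difference follows from the rule. The median length of the Hox regions was 96.5 bases, against 115 for all regions. Their median Vehicle signal was 9.18 against 5.24.

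To compare genes, signal was summed over the kilobase on each side of every annotated start of a gene and divided by the length of the window. The sum took in regions of any name, because some strong regions carry the name of an overlapping noncoding gene. Of 39 Hox genes, 27 had signal in the window and 12 had no region there, namely Hoxa2, Hoxa6, Hoxb1, Hoxb2, Hoxb3, Hoxb4, Hoxb5, Hoxb7, Hoxb9, Hoxb13, Hoxd11 and Hoxd12. An empty window means that no region was listed in it, not that the chromatin was measured as closed. Over all 27586 genes 82.7% of windows held a region, with a median level of 20.8 and an upper quartile of 107 units per kb. The median of the 39 Hox genes was 16.7, with 19 above the median of all genes and 6 above their upper quartile.

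Among paralogues 1 to 8, Hoxc5 had the highest value, 206 ± 35.3 (SD, n = 4), but one of its listed starts is that of Hoxc10 and its window shares regions with that gene. Hoxa5, Hoxc6 and Hoxa7 followed. Hoxa5, which takes part in shoulder and lung patterning, stood at 148, 159, 147 and 127 in Vehicle. Hoxc6 stood at 131, 143, 128 and 116, and Hoxa7 at 140, 138, 107 and 85.3. These 3 genes overlapped in their ranges. Hoxa3 and Hoxa4 were lower, at 31.2 ± 6.07 and 36.6 ± 4.96 (SD, n = 4 each). Hoxd3 and Hoxd4 shared a listed start and so one value, 36.5 ± 7.48. Hoxd8 stood at 34.9 ± 9.004, Hoxd1 at 8.29 ± 3.12, Hoxc4 at 9.19 ± 2.57 and Hoxc8 at 3.80 ± 1.99. The Hoxc4 value does not hold its strong untranslated exon, which lies outside the window. The order depended on the starts used. Levels were also counted at 1 RefSeq start per gene, the 5′ end of its whole RefSeq span. There Hoxc6 stood at 219 ± 17.7, Hoxa5 at 145 ± 13.6, Hoxc5 at 90.4 ± 16.8, Hoxa3 at 66.4 ± 13.1 and Hoxa7 at 47.0 ± 10.9.

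Among the posterior paralogues, Hoxc10 was the highest Hox gene in 8 of 8 libraries. Its level was 365, 369, 308 and 255 in Vehicle, a mean of 324 ± 54.0 (SD, n = 4), on 163 to 1560 read equivalents per library. It stood at the 93.6th percentile of all genes and was the only Hox gene above the 90th. Hoxd9 followed at 186, 179, 140 and 149, most of it in a 950-base region at chr2:74697557-74698506 annotated to the overlapping noncoding gene Gm28793. Hoxd10 stood at 85.0 ± 13.3, Hoxc11 at 80.8 ± 17.1 and Hoxa11 at 65.6 ± 13.2. Hoxa9 and Hoxa10 stood at 58.0 ± 15.9 and 54.7 ± 17.0, and Hoxc9 at 27.6 ± 8.36. These levels too depended on the starts used. At 1 RefSeq start per gene, Hoxd10 and Hoxa9 had no signal in the window and Hoxa10 stood at 25.4 ± 7.46. The levels of Hoxc10, Hoxd9, Hoxc11 and Hoxa11 stayed the same. In that setting 17 Hox windows were empty in place of 12. The end of the span is not the only RefSeq promoter of a gene, so an empty window there does not speak for all of them. The RefSeq promoter window of Hoxd10 printed below overlapped a region with a Vehicle mean of 158 ± 27.2 (SD, n = 4). At the far end of the clusters the paralogues differed: Hoxa13 stood at 70.7 ± 15.8 and Hoxc13 at 16.7 ± 3.42, with no overlap between them, while Hoxd13 stood at 4.58 ± 1.30 and Hoxc12 at 5.96 ± 1.72. Ordered by mean level, the range of each gene overlapped that of the next in 25 of 26 neighbouring pairs, and the exception was Hoxc10 against Hoxc5. In 15 windows the lowest Vehicle value was that of replicate 4.

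HoxB contributed little at any paralogue number. Hoxb6 stood at 3.31 ± 1.06 (SD, n = 4), on 6 to 41 read equivalents per library. The window of Hoxb8 stood at 15.5 ± 5.18 and held 3 intergenic regions. Hoxb3 had 2 weak regions in its untranslated exons, with Vehicle means of 7.19 and 1.99, both outside the window.

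Averaged over HoxA, HoxC and HoxD, the level was low in the anterior paralogues, high in the central and posterior ones and low again at the end. Paralogues 1 to 4 (8 genes) averaged 25.1 ± 0.823 units per kb over the Vehicle libraries, 5 to 8 (7 genes) 91.0 ± 13.2, 9 to 11 (9 genes) 95.5 ± 15.4 and 12 to 13 (5 genes) 19.6 ± 3.99. Paralogues 9 to 11 were the highest in 8 of 8 libraries, 4 of them of each group, but only slightly above 5 to 8. That last order depended on the window: with 2 kb on each side the means were 54.1 for 5 to 8 and 52.2 for 9 to 11, and over all annotated regions per kb of region they were 174 and 156. It also depended on the starts, as with 1 RefSeq start per gene the means of 5 to 8 and 9 to 11 were nearly equal. With Hoxc5 left out, 5 to 8 averaged 71.9. The mean of 9 to 11 rests in large part on Hoxc10, at 324 ± 54.0, while Hoxd9, the next of its genes, stood at 163 ± 22.7. A mean of 9 to 11 without Hoxc10 was not computed, so its lead over 5 to 8 is not shown to hold beyond that gene. The pattern differed between clusters. HoxC had 113 ± 15.04 at 5 to 8 and 144 ± 22.6 at 9 to 11, HoxD had 34.9 ± 9.004 and 82.8 ± 11.1, and HoxA had 87.6 ± 12.9 and 59.4 ± 14.2. The HoxC mean at 5 to 8 includes Hoxc5, whose window shares regions with Hoxc10, so some signal counts in both HoxC means. The other members, Hoxc6 and Hoxc8, stood at 130 ± 10.8 and 3.80 ± 1.99. At 12 to 13, HoxC had 11.3 ± 2.39 and HoxD 2.29 ± 0.648, but HoxA, with Hoxa13 alone, had 70.7 ± 15.8, which was above its mean at 9 to 11.

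**Figure D2:**
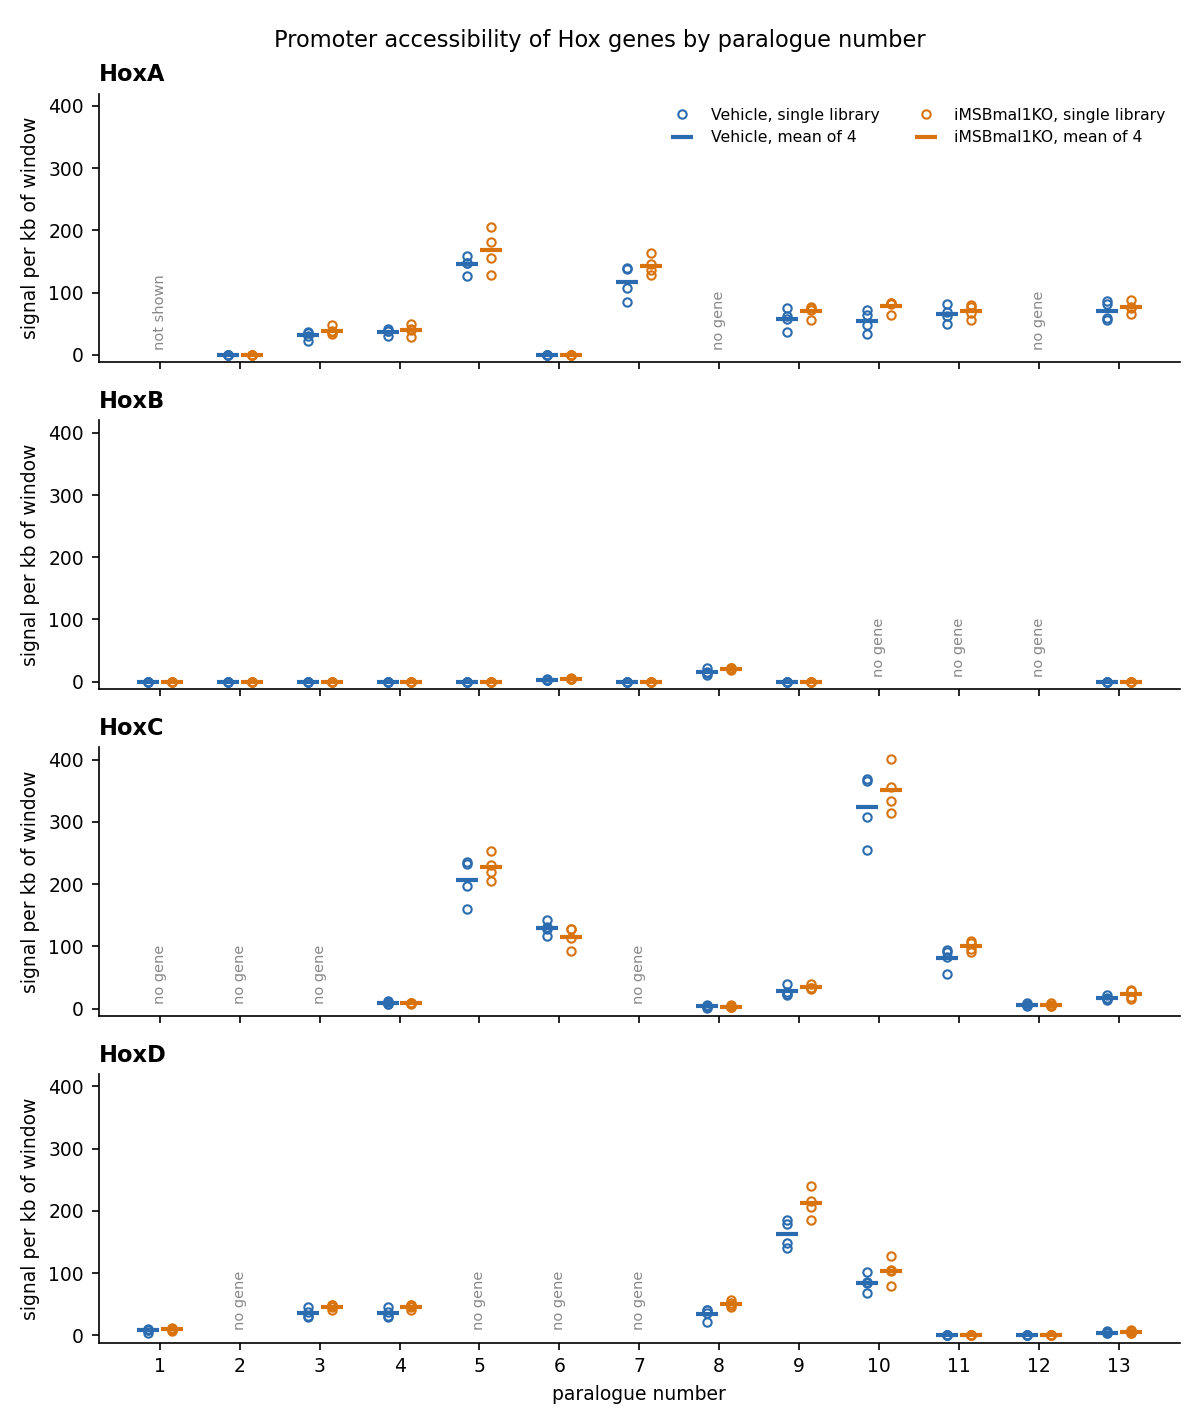
Promoter level (signal per kb of window) of the Hox genes shown against paralogue number, in 1 panel per cluster, with open circles for single libraries and bars for the mean of 4, Vehicle in blue and iMSBmal1KO in orange. Hoxc10 is the highest gene in every library, no HoxB value exceeds 22.6, and the circles of the groups overlap for every gene shown with signal but Hoxd8.

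The promoter table used here, taken from RefSeq in the GRCm38.p6 build, holds 24 windows of 300 bases, 250 before and 50 after a start, for 22 of the 39 Hox genes. Windows of Hoxc10 and Hoxc6 were not analysed here. Of these, 11 overlapped a listed region and 13 did not. The windows of Hoxd9, Hoxa5 and Hoxd10 are printed because the regions they overlapped were the strongest met by any of these 24 windows, with Vehicle means of 287 ± 46.4, 229 ± 21.4 and 158 ± 27.2 (SD, n = 4), and a window of Hoxd11 is printed beside them because it lies in the same cluster as Hoxd9 and Hoxd10 and overlapped none. The windows are chr2:74697513-74697812 (plus strand), chr6:52204538-52204837 (minus strand), chr2:74691641-74691940 (plus strand) and chr2:74682073-74682372 (plus strand). Capitals mark, on either strand, the E-box CACGTG that BMAL1 and CLOCK bind, the HOX-PBX site TGATTNAT, the CCAAT box CCAAT, the TATA box TATAAA and the GC box GGGCGG.
Hoxd9: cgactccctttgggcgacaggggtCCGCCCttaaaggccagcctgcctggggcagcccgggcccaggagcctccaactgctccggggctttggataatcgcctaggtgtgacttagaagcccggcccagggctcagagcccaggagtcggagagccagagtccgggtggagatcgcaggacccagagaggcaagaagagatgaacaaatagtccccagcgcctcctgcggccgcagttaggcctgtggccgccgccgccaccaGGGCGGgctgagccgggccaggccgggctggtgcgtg
Hoxa5: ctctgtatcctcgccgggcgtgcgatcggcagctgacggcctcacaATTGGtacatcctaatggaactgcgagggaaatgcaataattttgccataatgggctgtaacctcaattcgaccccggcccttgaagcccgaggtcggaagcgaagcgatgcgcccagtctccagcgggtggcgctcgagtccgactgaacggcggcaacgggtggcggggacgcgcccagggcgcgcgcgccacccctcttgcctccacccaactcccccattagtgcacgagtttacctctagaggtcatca
Hoxd10: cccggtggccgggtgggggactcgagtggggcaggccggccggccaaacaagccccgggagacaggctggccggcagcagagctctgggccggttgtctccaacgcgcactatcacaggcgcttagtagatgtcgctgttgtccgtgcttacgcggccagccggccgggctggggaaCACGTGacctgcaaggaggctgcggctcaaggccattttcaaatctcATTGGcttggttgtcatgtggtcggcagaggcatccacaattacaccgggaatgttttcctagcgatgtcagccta
Hoxd11: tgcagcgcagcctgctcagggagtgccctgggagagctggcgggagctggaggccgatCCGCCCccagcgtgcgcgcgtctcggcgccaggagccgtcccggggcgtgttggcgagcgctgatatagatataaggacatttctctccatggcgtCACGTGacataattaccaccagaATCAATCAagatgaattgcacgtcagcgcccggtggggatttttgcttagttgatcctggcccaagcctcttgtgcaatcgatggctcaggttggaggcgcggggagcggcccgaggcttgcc
The E-box stood in the printed windows of Hoxd10 and Hoxd11 alike, of which the first overlapped a region and the second did not. Another window of Hoxd11, chr2:74679308-74679607, also overlapped no region and held none of these motifs. Windows of Hoxd4, Hoxd12 and Hoxd13 overlapped no region either and are not printed. The E-box was present in 5 of 24 Hox windows, or 20.8%, against 7.15% of the 32851 windows of all genes. These were windows of Hoxd1, Hoxd4, Hoxd10, Hoxd11 and Hoxd13. The HOX-PBX site stood in 2 of 24 (8.33% against 3.22%), the CCAAT box in 15 (62.5% against 37.4%), the TATA box in 4 (16.7% against 13.6%) and the GC box in 10 (41.7% against 35.7%). Hox windows had a median GC content of 57.7% against 52.7%, and a median of 14.5 CpG dinucleotides against 7. Among Hox windows, the 11 with a region had a median of 20 CpG and the 13 without had 12. A match describes letters in these windows only.

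The second question was whether accessibility at the Hox clusters differed in iMSBmal1KO muscle. No Hox region, promoter or gene sum passed the test. Of 198 Hox regions, 97 passed the filter on low values and 101 were not tested. With limma on log2(signal + 1), fitted over all 124901 tested regions of the table, 0 of 97 had a Benjamini-Hochberg adjusted p under 0.05, against 0.0881% of all tested regions, and the smallest adjusted p of a Hox region was 0.412. At an unadjusted p under 0.05, 10 were higher in iMSBmal1KO, or 10.3% against 6.59% of all regions, and 1 was lower, or 1.03% against 2.63%. In 6 Hox regions all 4 iMSBmal1KO values lay above all 4 Vehicle values (6.19%, against 3.62% of all regions), and in 1 they all lay below (1.03%, against 1.87%). The median log2 change was 0.20 over the tested Hox regions and 0.12 over all tested regions, and 70 of 97, or 72.2%, were positive against 62.0%. The excess of the Hox median over the median of all regions was 0.08. After cyclic loess scaling the median of all regions was 0.01, the counts at an unadjusted p were 5 higher and 3 lower, and the Hox median was 0.09. Leaving out 1 library gave 4 to 14 higher regions, with 4 without iMSBmal1KO replicate 1 or replicate 2, and no filter gave 16. Without Vehicle replicate 4 the counts were 7 and 3 and the Hox median was 0.11 against 0.04 for all regions.

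**Figure D3:**
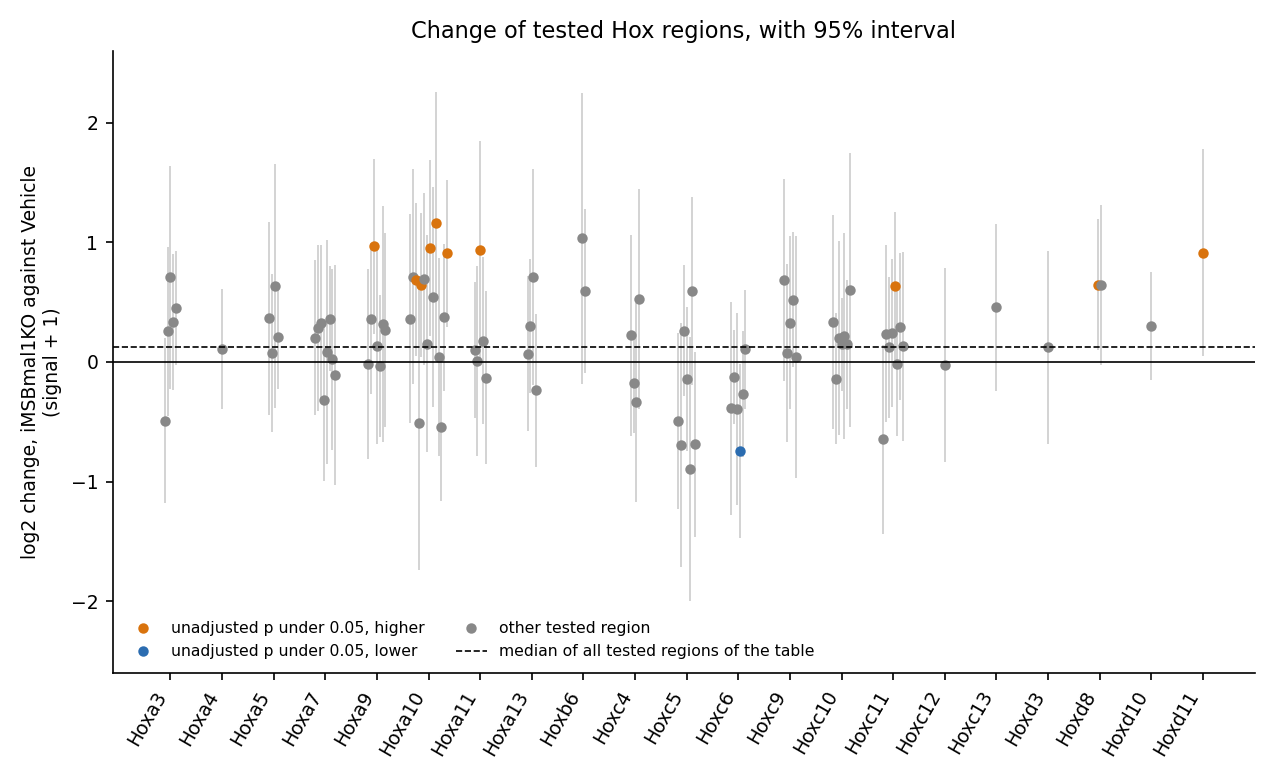
Log2 change of iMSBmal1KO against Vehicle, on log2(signal + 1), for 94 of the 97 tested Hox regions, grouped by gene and ordered by position within a gene, with the 95% interval of the limma fit. Orange and blue points have an unadjusted p under 0.05, the dashed line is the median of all tested regions at 0.12, and no point passed the adjusted threshold.

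Of the 10 regions higher at an unadjusted p under 0.05, 5 were annotated to Hoxa10. This gene, a patterner of the upper leg, had 14 tested regions, with a median change of 0.59. Of these, 12 had a positive change, as did 62.0% of all tested regions of the table. Neighbouring regions of one gene are not independent of each other. At chr6:52240546-52240705, a start of Hoxa10, Vehicle gave 30.9, 46.2, 20.3 and 21.9 and iMSBmal1KO 50.9, 70.2, 42.9 and 55.2, so that only Vehicle replicate 2 reached into the other group. Its log2 change was 0.91 ± 0.29 (SE), the smallest p of any Hox region at 0.00571 unadjusted and 0.412 adjusted in limma. At chr6:52234054-52234162, a further Hoxa10 start, Vehicle gave 16.0, 9.25, 10.2 and 6.25 and iMSBmal1KO 21.0, 17.6, 16.7 and 26.3, with no overlap and a change of 0.95 ± 0.35 (SE). The transcript end at chr6:52232658-52232785 gave 73.5, 40.1, 41.9 and 21.9 against 74.0, 56.9, 56.1 and 80.3, a change of 0.69 ± 0.31 (SE) that was 0.40 without Vehicle replicate 4. Hoxa10 also held an intronic region, chr6:52237560-52237711, that went the other way, at 43.7, 34.9, 32.4 and 21.9 against 22.7, 18.4, 21.5 and 25.1, a change of -0.55 ± 0.29 (SE).

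At Hoxa9, next to Hoxa10 in the cluster, the region at chr6:52226195-52226288 gave 44.8, 46.2, 36.2 and 12.5 in Vehicle and 65.5, 78.3, 46.1 and 62.7 in iMSBmal1KO. Its change was 0.97 ± 0.35 (SE), and 0.55 without Vehicle replicate 4, whose value was the lowest. At Hoxd8, the region chr2:74704820-74705133 gave 50.1, 57.5, 48.3 and 28.1 against 80.5, 77.8, 64.4 and 60.2, with no overlap and a change of 0.65 ± 0.26 (SE). Without Vehicle replicate 4 that change was 0.43. Groups were also apart at a further Hoxa10 start, chr6:52233594-52233839, with 83.1, 75, 66.7 and 28.1 in Vehicle and 92.5, 99.5, 90.7 and 86.6 in iMSBmal1KO. The first coding exon of Hoxc11 (chr15:102955010-102955266) gave 74.6, 79.1, 78.2 and 28.1 against 79.6, 88.6, 94.2 and 116.7. In both, the highest Vehicle value lay close under the lowest iMSBmal1KO value, and Vehicle replicate 4 was far below the other Vehicle libraries. The start of Hoxa3 (chr6:52212994-52213308) gave 76.7, 84.3, 79.4 and 62.5 against 94.0, 137, 89.5 and 97.8, with Vehicle replicate 4 again the lowest and a change of 0.45 ± 0.23 (SE). In limma the adjusted p was 0.468 for the Hoxa9 region, 0.504 for that of Hoxd8, 0.528 for chr6:52233594-52233839 and 0.557 for that of Hoxa3.

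Of the 5 regions with the smallest p among those lower in iMSBmal1KO, 3 lay in HoxC. At a start of Hoxc6, chr15:103000019-103000135, Vehicle gave 22.4, 29.8, 27.96 and 21.9 and iMSBmal1KO 20.55, 9.20, 9.54 and 25.1. Replicates 2 and 3 of iMSBmal1KO were low, replicate 1 lay just under the Vehicle range and replicate 4 within it, and the change was -0.75 ± 0.35 (SE). Others of these had unadjusted p from 0.0767 to 0.104 in limma, with changes of -0.69 at Hoxc5 (chr15:103015133-103015286) and -0.65 at Hoxc11 (chr15:102953789-102953879), beside the Hoxa10 intron. Of the tested regions of Hoxc6, 1 of 6 had a positive change, with a median of -0.33, and of Hoxc5 2 of 7, with a median of -0.50. All 5 tested regions of Hoxc9 and all 4 of Hoxa5 had a positive change, with medians of 0.33 and 0.29. Positive changes made up 62.0% of all tested regions and 72.2% of the tested Hox regions. Neighbouring regions of one gene are not independent, and differences between these genes were not tested.

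Summed over promoters, 25 Hox genes could be tested among 19170 genes. None passed, against 0.0782% of all genes, and the smallest adjusted p was 0.435 in limma. At an unadjusted p under 0.05, 3 were higher (12%, against 9.29% of all genes) and 0 were lower (against 1.34%). The 3 were Hoxa10, Hoxd8 and Hoxd9, and without Vehicle replicate 2 the count was 7. Hoxa10 stood at 72.5, 63.9, 48.0 and 34.2 units per kb in Vehicle and at 81.2, 83.9, 64.3 and 83.3 in iMSBmal1KO, so that iMSBmal1KO replicate 3 overlapped the Vehicle range. Its log2 change was 0.56 ± 0.20 (SE), with an adjusted p of 0.435 in limma. Without Vehicle replicate 4 the change was 0.36, and without Vehicle replicate 2 it was 0.66 with an adjusted p of 0.0435, the only setting in which a Hox promoter passed. Without that library 621 genes of the table passed in place of 15.

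Hoxd8 stood at 40.5, 41.3, 35.8 and 21.8 in Vehicle and 57.2, 52.2, 45.3 and 48.8 in iMSBmal1KO. It was the 1 Hox promoter whose groups did not overlap (4.00%, against 3.59% of all genes), and its log2 change was 0.58 ± 0.22 (SE) with all libraries and 0.37 without Vehicle replicate 4. Hoxd9 stood at 186, 179, 140 and 149 against 185, 241, 207 and 216, with a log2 change of 0.38 ± 0.18 (SE). For Hoxc10 the iMSBmal1KO values were 334, 401, 314 and 356, of which replicate 2 lay above the Vehicle range of 255 to 369 and the others within it. Its log2 change was 0.12, with a 95% interval of -0.24 to 0.49, and under cyclic loess scaling it was -0.04. For Hoxa5 the change was 0.19, with an interval of -0.18 to 0.57, and -0.03 under cyclic loess. Hoxc6 was the gene with the most negative change, at -0.18 with an interval of -0.54 to 0.18. That change was -0.53 with a 500 bp window, -0.37 under cyclic loess and -0.08 without iMSBmal1KO replicate 3. Over the 25 genes 21 changes were positive and the median was 0.30, against 0.16 for all genes. The share of positive changes over all genes was not counted. Hoxd3 and Hoxd4 share one window and Hoxc5 shares regions with Hoxc10, so these are not 25 separate values. The median was 0.19 against 0.07 without Vehicle replicate 4 and 0.11 against 0.00 under cyclic loess. Its excess over all genes was 0.07 without Vehicle replicate 2 in place of 0.15.

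**Figure D4:**
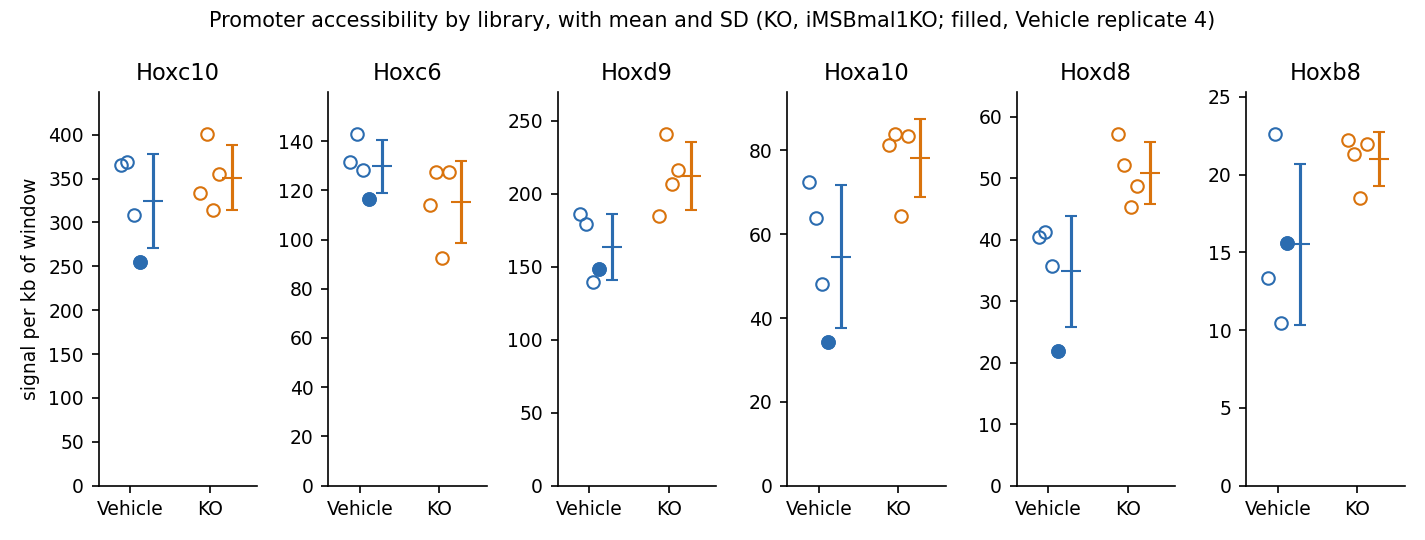
Promoter level (signal per kb of window, axes from 0 and scaled per gene) of 6 Hox genes in each library, with the mean and SD of each group of 4 beside the points. The filled point is Vehicle replicate 4, which is the lowest library at Hoxc10, Hoxa10 and Hoxd8, and only Hoxd8 has groups that do not overlap.

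Summed over all regions annotated to a gene, 24 Hox genes were tested among 22241. None passed, against 0.13% of all genes, and the smallest adjusted p was 0.501 in limma. At an unadjusted p under 0.05, 4 were higher (16.7%, against 7.62% of all genes) and 0 were lower (against 1.86%). They were Hoxd8, Hoxb6, Hoxa10 and Hoxd11, with log2 changes of 0.58, 0.72, 0.49 and 0.91. Of these Hoxb6 and Hoxd11 rest on 2 and 1 weak regions. The single region of Hoxd11 gave 11.7, 9.25, 3.81 and 9.38 in Vehicle and 20.55, 22.6, 15.5 and 8.78 in iMSBmal1KO, with replicate 4 of iMSBmal1KO inside the Vehicle range. Of the 24 sums 18 were positive and the median was 0.27, against 0.11 for all genes. The share of positive sums over all genes was not counted. The median was 0.15 against 0.05 without Vehicle replicate 4 and 0.10 against 0.00 under cyclic loess. The 4 higher sums became 1 without iMSBmal1KO replicate 2, 2 without Vehicle replicate 4 or iMSBmal1KO replicate 4, and 6 without Vehicle replicate 2 or with a replicate block. With the strict filter they were 2.

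As whole clusters, HoxD and HoxB had groups that did not overlap. How often other spans of like length have groups apart was not counted, so no share stands beside this. The HoxB span holds only 12 regions, and over all tested regions of the table the median log2 change was 0.12. HoxD carried 9.71, 8.89, 7.88 and 7.29 units of signal per kb of span in Vehicle and 10.5, 12.2, 10.1 and 10.7 in iMSBmal1KO, with Vehicle replicate 4 the lowest. HoxB carried 0.417, 0.597, 0.343 and 0.539 against 0.640, 0.668, 0.638 and 0.714. Vehicle replicate 4 was also the lowest library over HoxA and HoxC. HoxA gave 26.4 ± 4.56 in Vehicle and 30.6 ± 3.19 in iMSBmal1KO, and HoxC 22.5 ± 2.79 and 23.6 ± 1.59 (SD, n = 4 each), with overlap. Chromosomes 1 to 19 gave 4.58 to 5.59 in Vehicle and 5.10 to 5.82 in iMSBmal1KO, also with overlap. These sums are given as values and were not tested.

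Genes outside the clusters that act with Hox proteins or set limb identity were read in the same fit of promoters. Pitx1 and Tbx4, which specify the hindlimb, stood at 9.21 ± 1.11 and 2.12 ± 1.07 units per kb in Vehicle, at percentiles of 39.4 and 22.4 of all genes. Tbx5, the forelimb counterpart of Tbx4, had no region in its window. Over all annotated regions their ranges overlapped, with 7 regions of Tbx5 summing to 22.2 ± 11.6 and 4 regions of Tbx4 to 18.7 ± 6.91 in Vehicle. Tbx15 and Tbx3 were the most accessible of this list, at 149 ± 30.0 and 112 ± 26.2 (SD, n = 4). Of the 9 limb genes in the table, 7 were tested and none passed. En1, which marks the ventral side of the limb, had an unadjusted p of 0.0266 in limma and an adjusted p of 0.440, at 88.5, 84.8, 60.4 and 29.7 in Vehicle and 99.9, 127, 77.5 and 85.3 in iMSBmal1KO, with Vehicle replicate 4 again the lowest. For Pitx1 the iMSBmal1KO values were 7.17, 5.02, 11.6 and 4.08, a log2 change of -0.49 with an adjusted p of 0.516 in limma.

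The PBX, MEIS and PKNOX proteins, which bind DNA together with Hox proteins, had 9 of 9 genes tested and none passed. Among them Pknox1 stood at 287 ± 63.2 units per kb in Vehicle (SD, n = 4), at the 92.0th percentile of all genes, Pbx3 at 119 ± 20.1 and Meis1 at 57.7 ± 10.04. The median log2 change of the 9 genes was 0.05. Of 19 Polycomb genes none passed and 4 had an unadjusted p under 0.05, all higher, against 9.29% of all genes. The median change over the list was 0.24, against 0.16 for all genes. Cbx2, Eed and Pcgf2 were among these, with changes of 0.57, 0.46 and 0.50. Of the 7 genes that oppose Polycomb 6 were tested and none passed, with a median change of 0.18. Of the 10 genes that flank the clusters 8 were tested and none passed, with a median of 0.17. Mtx2, beside HoxD, was the only tested flanking gene with an unadjusted p under 0.05, at 0.00538 and 0.423 adjusted in limma. It stood at 93.3, 104, 70.9 and 64.1 in Vehicle and 107, 133, 124 and 124 in iMSBmal1KO, with no overlap and Vehicle replicate 4 the lowest. Groups lay apart and higher in 3.59% of all tested promoter sums. Lnpk and Atf2, also of this list, had log2 changes of -0.025 and 0.015. Of the ParaHox genes and the Cdx genes, relatives of the Hox genes, 2 were tested and none passed, with a median of 0.06. Among 20 noncoding and other genes within the clusters 17 were tested and none passed, with a median of 0.12. This list is not separate from the Hox promoters. Haglr and Gm28032 had the same window values as Hoxd1 and Hoxa11, and the window of Gm28793 was nearly that of Hoxd9. For all these lists the share of all genes that passed was the 0.0782% given for promoters.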

How the data were processed

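ATAC-seq was made from gastrocnemius nuclei in 8 samples, 4 per group. The authors deposited 1 table of regions with a scaled signal per library. Per the submitters' processing notes, Partek, Bowtie2, MACS2 and DESeq2 were used and the builds mm10 and GRCm39 were named, with no role given. The treatment of duplicates and the transposase shift are not given in the sources used here. The coordinates match mm10: of 22777 genes matched to RefSeq, 99.9% overlapped their GRCm38.p6 position. Between 98.3% and 99.8% of non-zero signal values were whole multiples of 1 step per library, within 0.02 reads, and the step was used only for depth, filters and read equivalents.

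Regions, promoter sums (1 kb on each side of each listed start) and gene sums were fitted in limma 3.58.1 (R 4.3.3) with trend and robust moderation on log2(signal + 1), over all features with at least 10 reads at median depth in 4 libraries and 15 reads in all. P-values were adjusted by Benjamini-Hochberg, with a threshold of 0.05, and the scripts were tested on simulated data. Tests are two-sided. The labels do not say whether samples are separate mice, so p-values measure the spread between these samples. Positions are 1-based. All Hox genes could be named, as could each gene's strongest region near its start, the 5 regions of smallest p in each direction, the 10 highest per kb, and members of the lists of cofactors, limb genes, Polycomb genes and their opponents, ParaHox, flanking and noncoding genes and cell type markers. The members and lists were chosen with earlier results of these data known. Results for some of the genes tested are not reported here.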

Additional observations from a re-analysis of the deposited data

Results flagged for a closer look

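Among 62 groups of 4 libraries examined, over Hox promoter levels and cluster signal, 1 held a library far from the other 3. At 1 in 20 groups, chance gives about 3.1. The promoter level of Hoxa10 was 64.3 units per kb in iMSBmal1KO replicate 3, while the other 3 iMSBmal1KO libraries lay between 81.2 and 83.9.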

How the results depend on the processing

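The count of Hox regions that passed was 0 and the count of Hox gene sums was 0 in each of the 18 alternatives run for them. Hox promoter sums gave 0 in 20 of 21 alternatives, and leaving out a library gave 0 to 1, the 1 being Hoxa10 without Vehicle replicate 2. The alternatives were pseudocounts of 0.5 and 5, median-of-ratios, TMM, total-read and cyclic loess scaling, filters off or 3 times stricter, other windows and each library left out. Voom weights in limma, the RefSeq start and the omission of Hoxc5 were chosen after seeing the data. Tests with edgeR and DESeq2 were not run because reads were not fully recovered. Over all regions 110 passed in the main fit, 342 with cyclic loess, 342 with voom, 195 without a filter, 58 with TMM, and 32 to 281 with a library left out. Cyclic loess turned the promoter change of Hoxc10 to -0.039 and of Hoxa5 to -0.033; the cause was not tested. The lead of HoxC over HoxB in mean promoter level, 87.5 units per kb, was 128 with 500 bp windows, 51.5 with 2 kb windows, 149 over all regions per kb of region and 72.9 without Hoxc5, and 83.8 to 93.3 with a Vehicle library left out.

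Deviations of equally numbered samples correlated at -0.064, 0.14, 0.023 and 0.025, and only for replicate 2 was the equally numbered sample the best match. The labels state no pairing, and these low values cannot exclude one. With a replicate block 0 Hox regions, 0 promoter sums and 0 gene sums passed, while over the whole table the counts were 100 regions, 249 promoters and 116 gene sums in place of 110, 15 and 29. Regions with few reads, such as those of HoxB with 6 to 41 read equivalents at Hoxb6, allow no fine comparison.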
